A study of Mus musculus with 4 samples.

Results

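The imprinted growth genes are genes expressed mainly from the copy of 1 parent that are known to control fetal and stem cell growth. The 10 named were Meg3, Dlk1, Rian, Mirg, H19, Igf2, Cdkn1c, Peg3, Plagl1 and Grb10. They were chosen because Meg3, Dlk1 and Rian had been seen lower on both arrays of Adamts12-deficient (KO) colon, and the rest for belonging with them. Their members here were the probe sets that the platform annotation assigns to 1 of these genes alone, 33 probe sets of 9 genes among 18193 genes on the array. H19 had no such probe set, because its only one is shared with Mir675. The samples were distal colon from 4 mice, with 1 Affymetrix mouse array each: an Adamts12 KO mouse given 2% dextran sodium sulfate (DSS) in drinking water, a wild-type (WT) mouse given the same, an untreated KO mouse and an untreated WT mouse. DSS injures the colonic epithelium and causes colitis. The labels put the start of treatment at 8 to 10 weeks of age and give its length as 7 days in one place and 8 days in another, with 1 day off DSS afterwards. The labels name neither the strain, nor which piece of Adamts12, an extracellular protease gene, is deleted, nor whether its loss is limited to certain cells.

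Values are given as deposited, on a log2 scale, so a difference of 1 is 2-fold. Each group is 1 mouse, so no difference between single arrays can be checked against replicates. Bulk tissue was measured, so fewer cells of a type and less RNA per cell cannot be told apart. A value at or under 1.39, the highest that 9 Y-linked probe sets reached on the 4 arrays, all of which had bright Xist, was read as not above background. The brighter Adamts12 probe set had values of 1.41 on the KO DSS array and 2.18 on the WT DSS array, and without treatment of 1.42 in KO and 2.18 in WT, a dim signal that checks the genotypes only weakly. Of the distal colon epithelium markers, Car1, a carbonic anhydrase gene of colonocytes, was at 10.54, 10.80, 12.90 and 10.19 on the KO DSS, WT DSS, untreated KO and untreated WT arrays. The markers did not move together. Without DSS, 2 of 11 were at least 2-fold higher in KO than in WT and 5 lower (all genes: 3.43% and 5.98%). Car1 was higher by 2.71, and Fcgbp and Clca1 were lower by -2.20 and -1.72. With DSS, 1 was higher and 3 were lower (all genes: 4.22% and 1.21%). The untreated KO array stood apart the most in markers of gut position. The posterior homeobox gene Hoxb13 was at 2.48 there and at 9.47 on the untreated WT array. All 6 measured markers of proximal colon and small intestine were at least 2-fold higher on the untreated KO than on the untreated WT array, with a median difference of 3.83. The WT DSS array was shifted too. Against untreated WT, 3 of these 6 markers were at least 2-fold higher on it and 1 was lower. With DSS, 2 of the 6 were at least 2-fold lower in KO than in WT and 0 higher. Hoxd13, a distal colon marker, was at 4.22 on the WT DSS, 7.2 on the KO DSS and 8.82 on the untreated WT array. Hoxb13 differed less, at 7.84 on the WT DSS and 8.4 on the KO DSS array.

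Imprinting is set by DNA methylation laid down in the germ line. In the Dlk1-Dio3 domain of mouse chromosome 12, the paternal copy expresses Dlk1, a transmembrane protein related to Notch ligands that marks preadipocytes and other progenitors, while the maternal copy expresses the long non-coding RNAs Meg3, Rian and Mirg, which carry small nucleolar RNAs and many miRNAs in their introns. Imprinted clusters next to each other on chromosome 7 hold the growth factor gene Igf2, the non-coding RNA H19 and the cell cycle inhibitor gene Cdkn1c. Plagl1 encodes a zinc finger transcription factor known to act on several imprinted genes, Peg3 a zinc finger protein of stem and progenitor cells, and Grb10 an adaptor that restrains insulin and IGF receptors.

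The sequences below show where transcription of the domain starts and what its non-coding RNAs carry. RefSeq promoters of the GRCm38.p6 build, 250 bases before and 50 after an annotated start, were found for 8 of the 10 genes. They are printed for Meg3 and Dlk1, the domain members with the brightest probe sets, and for Peg3, the other member whose window holds the same motif. Capitals mark TGACGTCA, a cyclic AMP response element, and TATAAA on either strand, where the copies in Meg3 overlap each other. The windows are Meg3 at chr12:109540746-109541045 on the plus strand, Dlk1 at chr12:109452573-109452872 on the plus strand and Peg3 at chr7:6730370-6730669 on the minus strand.
Meg3: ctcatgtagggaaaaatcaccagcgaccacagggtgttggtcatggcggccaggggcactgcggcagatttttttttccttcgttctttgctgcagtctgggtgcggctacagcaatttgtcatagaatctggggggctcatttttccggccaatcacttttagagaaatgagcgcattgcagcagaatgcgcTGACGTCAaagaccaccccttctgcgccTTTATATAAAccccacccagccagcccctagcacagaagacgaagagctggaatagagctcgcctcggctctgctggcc
Dlk1: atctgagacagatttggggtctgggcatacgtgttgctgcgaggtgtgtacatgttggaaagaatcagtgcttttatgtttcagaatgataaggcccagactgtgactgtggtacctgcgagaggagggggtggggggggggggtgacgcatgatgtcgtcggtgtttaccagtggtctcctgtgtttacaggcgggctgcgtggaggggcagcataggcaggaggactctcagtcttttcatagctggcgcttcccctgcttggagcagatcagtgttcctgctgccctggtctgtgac
Peg3: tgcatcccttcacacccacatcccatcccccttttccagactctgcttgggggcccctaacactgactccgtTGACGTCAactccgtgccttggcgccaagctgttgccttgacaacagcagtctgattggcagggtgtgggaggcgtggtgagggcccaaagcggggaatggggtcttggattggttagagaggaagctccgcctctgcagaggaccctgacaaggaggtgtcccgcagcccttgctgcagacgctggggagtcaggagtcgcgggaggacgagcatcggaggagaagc

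TGACGTCA began at position -57 from the start of Meg3 and at -178 from that of Peg3. It was found in 2 of the 13 member promoter windows and in 1.79% of 32851 windows of all genes, and TATAAA in 1 of the 13 and in 13.6% of all. The motif GGGGCCCC was found in the Peg3 window and in 1.08% of all windows, and CACGTG in the Plagl1 window and in 7.15% of all. The Meg3, Dlk1 and Peg3 windows held 13, 9 and 13 CG dinucleotides, and the window at the annotated start of Rian held 0, where the median of all windows was 7. A match of letters is a description and was not tested as a binding site.

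The gene spans of Meg3, Rian and Mirg hold 15 miRNA genes in RefSeq, 2 in Meg3, 3 in Rian and 10 in Mirg. Their 28 mature forms have 27 different seeds, and only miR-453 and miR-496a-5p, both within Mirg, share one. The arrays measured the host transcripts and not these miRNAs. An example is printed for Meg3, for Rian and for Mirg, and the pair with the shared seed after them, with the seed (bases 2 to 8) in capitals.
mmu-miR-770-5p in Meg3: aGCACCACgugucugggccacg
mmu-miR-370-3p in Rian: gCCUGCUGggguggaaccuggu
mmu-miR-410-3p in Mirg: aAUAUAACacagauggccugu
mmu-miR-453 in Mirg: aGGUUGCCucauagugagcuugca
mmu-miR-496a-5p in Mirg: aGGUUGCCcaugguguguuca

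Transcripts of the Dlk1-Dio3 domain were highest on the WT DSS array and, for most probe sets, lowest on the untreated KO array. The brightest Meg3 probe set (1439380_x_at) had values of 7.31 on the KO DSS array, 9.43 on the WT DSS array, 6.01 on the untreated KO array and 7.61 in untreated WT colon. Both KO values lay below both WT values, and the KO value with DSS came close to the untreated WT value, differing from it by -0.30. The KO minus WT difference was -2.12 with DSS and -1.60 without. As a ratio of KO to WT, this was 0.230 with DSS and 0.330 without. A Meg3 probe set without a suffix for several transcripts (1452905_at) gave 5.87, 7.98, 4.30 and 5.78 on the KO DSS, WT DSS, untreated KO and untreated WT arrays, with the KO DSS value just above the untreated WT one.

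**Figure D1:**
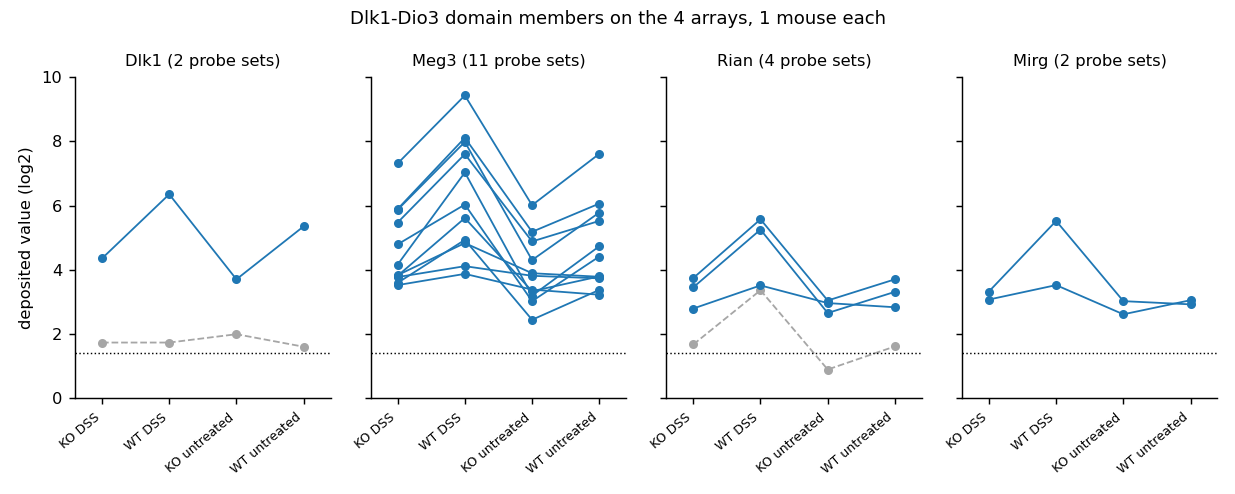
Deposited log2 values of every probe set of Dlk1, Meg3, Rian and Mirg on the 4 arrays (1 mouse each). Each line joins the values of 1 probe set, solid blue where it passed the filter on dim probe sets and dashed grey where it did not, and the dotted line is the background limit of 1.39. All 17 solid lines peak on the WT DSS array, and 3 of them passed the filter only through that array.

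Meg3 had 11 probe sets, all of which passed the filter, and they did not all behave alike. With DSS, all 11 were lower on the KO than on the WT array, by -0.34 to -2.87 with a median of -1.80, and 9 were at least 2-fold lower. Without DSS, 8 were lower and 3 were higher, between -1.60 and 0.16 with a median of -0.88. The 3 that were higher (1429256_at, 1429257_at and 1436057_at) also had the smallest DSS minus untreated differences in WT, 0.65, 0.38 and 1.05, and lay between 3.22 and 4.83 on all arrays. The largest KO minus WT difference with DSS was that of 1436713_s_at, which had values of 4.16 on the KO DSS and 7.03 on the WT DSS array, and untreated values of 3.19 in KO and 4.73 in WT. Several of these probe sets were designed from the same transcript sequence, so they are not independent measures.

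Rian, the host of a snoRNA cluster, was dimmer and had the same peak. Its brightest probe set (1427580_a_at) had values of 3.74 on the KO DSS array, 5.57 on the WT DSS array, 3.04 on the untreated KO array and 3.70 in untreated WT colon. The WT DSS array alone stood high, and the KO DSS and untreated WT arrays were nearly level. Another Rian probe set (1452899_at) gave KO minus WT differences of -1.80 with DSS and -0.66 without. Probe set 1440001_at, which passed the filter only through the WT DSS array, differed by -0.72 and 0.13. The last (1428055_at) did not pass the filter, was not above background on the untreated KO array, at 0.89, and had values of 1.67, 3.36 and 1.61 on the KO DSS, WT DSS and untreated WT arrays.

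Mirg, the miRNA host furthest from Dlk1, had 2 probe sets. Both passed the filter only through the WT DSS array, so their high place there is in part given by the filter. On the brighter (1457030_at), the KO DSS array was at 3.32, the WT DSS array at 5.52, the untreated KO array at 3.02 and the untreated WT array at 2.92. The WT DSS array stood 2.20 above the highest of the others, which lay within 0.40 of each other. The KO minus WT difference was thus -2.20 with DSS and 0.10 without. The other Mirg probe set (1440097_at) spanned 2.61 to 3.52 and was lower in KO by -0.45 with DSS and -0.44 without.

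Dlk1 was the paternally expressed gene of the domain. Its bright probe set (1449939_s_at) had values of 4.35 on the KO DSS array, 6.35 on the WT DSS array, 3.70 on the untreated KO array and 5.35 in untreated WT colon. Both KO arrays were lower than both WT arrays, with KO minus WT differences of -2.0 with DSS and -1.65 without, ratios of KO to WT of 0.250 and 0.319. The KO DSS value also lay below the untreated WT value, by -1.0. The other Dlk1 probe set (1442724_at) did not pass the filter and lay between 1.60 and 1.99.

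Of the 23 member probe sets that passed the filter, 13 were at least 2-fold lower in KO than in WT with DSS, where 1.34% of all 24602 kept probe sets were, and 0 were 2-fold higher (3.65%). Without DSS, 6 were at least 2-fold lower (6.56% of all) and 0 higher (2.97%). All 13 with DSS and 5 of the 6 without were of the 4 domain genes, and the sixth was a Peg3 probe set. Since the members were chosen on the KO against WT contrast, these counts describe the choice and are not evidence for it, and 1 of the 13 had passed the filter only through the WT DSS array. At least 2-fold lower in KO with and without DSS were 5 (0.276% of all). Both KO arrays lay below both WT arrays for 5 member probe sets, 4 of Meg3 and that of Dlk1, against 10.9% of all.

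With DSS the domain transcripts were higher in WT and, by a smaller margin, in KO. In WT, 13 of the 17 kept domain probe sets were at least 2-fold higher with DSS, where 5.14% of all kept probe sets were, and the median DSS minus untreated difference was 1.82 (all kept probe sets: -0.01). In KO, 4 of 17 were, all of Meg3, where 10.1% of all kept probe sets were, 0 were 2-fold lower (5.76% of all), and the median was 0.65 (all: 0.06). The WT DSS array enters both the WT comparison and the contrast on which the members were chosen, so its high values are in part given by that choice, and 3 of the 13 passed the filter only through DSS arrays. The DSS minus untreated differences were 1.30 in KO and 1.82 in WT for Meg3 (1439380_x_at), 0.70 and 1.87 for Rian (1427580_a_at), 0.30 and 2.60 for Mirg (1457030_at), and 0.65 and 1.00 for Dlk1 (1449939_s_at). For 16 of the 17 probe sets the difference was smaller in KO than in WT, the exception being Meg3 1452906_at, with 1.77 in KO and 1.62 in WT. The share of all kept probe sets with a smaller difference in KO was not counted. Such a difference is the same as a lower KO minus WT value with DSS than without, the contrast of the choice. Of the 17, 11 are of Meg3, so the count is a description. Set against the untreated WT array in place of the untreated KO one, a comparison added after the values were seen, the KO DSS array had 0 of the 23 member probe sets at least 2-fold higher and 2 lower, those of Dlk1 and Cdkn1c, where 5.28% of all kept probe sets were higher and 4.78% lower. This comparison differs in genotype as well as in treatment. Both DSS arrays lay above both untreated arrays for 9 of the 17, all of the maternal RNAs (24.8% of all kept probe sets), and 4 of the 17 were at least 2-fold higher in both genotypes (2.15%). With 1 array a group this unequal response has no test.

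**Figure D2:**
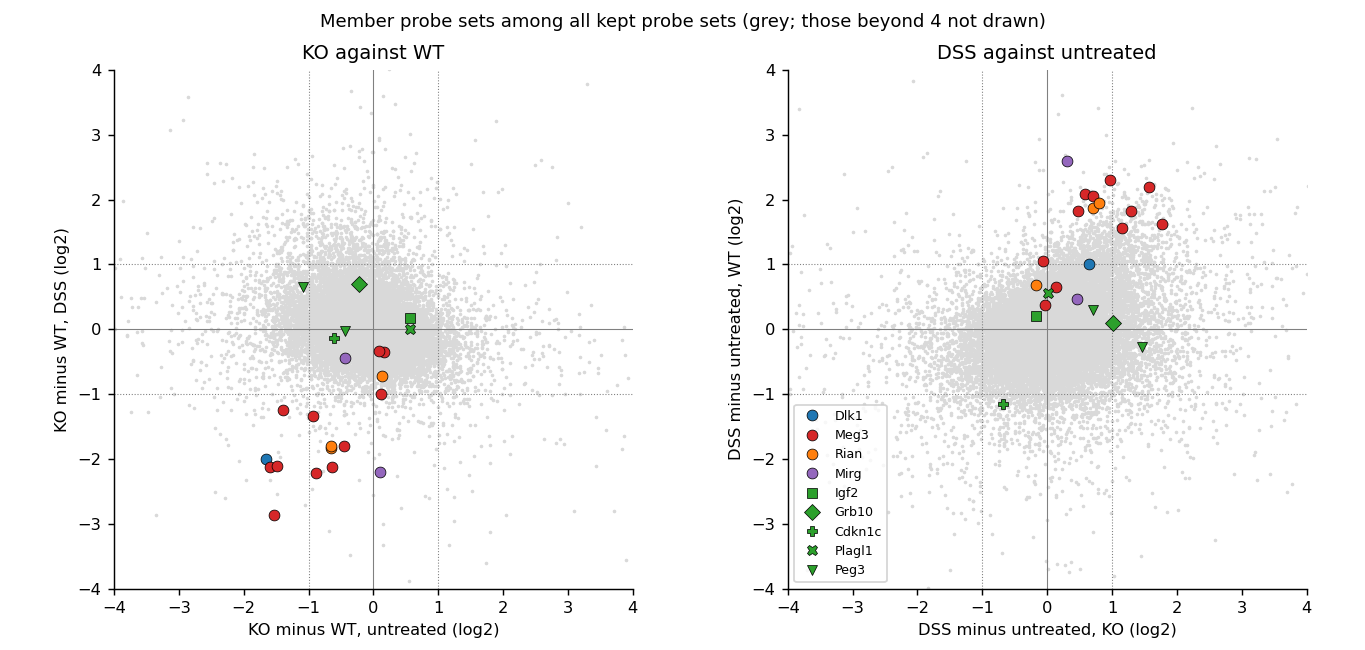
Log2 differences of the 23 kept member probe sets (coloured) and of all kept probe sets (grey). The left panel sets KO minus WT with DSS against KO minus WT without, and the right panel DSS minus untreated in WT against that in KO, with dotted lines at 2-fold. The Dlk1, Meg3, Rian and Mirg probe sets lie low in the left panel, down to -2.87 with DSS, and high in the right, up to 2.60 in WT, while the other members (green) lie nearer the centre.

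The DSS effect over both genotypes, a contrast the choice of members did not use, was tested with limma over all 24602 kept probe sets with genotype as covariate. None of the 23 member probe sets passed at an adjusted p of 0.05, as 0% of all kept probe sets did, and 12 had an unadjusted p under 0.05, 11 of them of the domain, where 10.4% of all kept probe sets did. Of the 23, 6 had passed the filter only through DSS arrays, where they were high, all of them of the domain, so a DSS difference in these is in part given by the filter. They were Meg3 1428764_at and 1429256_at, Rian 1440001_at and 1452899_at and both Mirg probe sets, and 2 of the 12 were among them. Without the genotype covariate, 0 of the 23 passed limma and 2 had an unadjusted p under 0.05. The share of all kept probe sets was not counted for that model. No support is drawn from these counts. Meg3 1439380_x_at was higher with DSS by 1.56 (SE 0.28, adjusted p = 0.394), higher in both genotypes. Rian 1427580_a_at was higher by 1.29 (SE 0.39, adjusted p = 0.438) and Dlk1 1449939_s_at by 0.83 (SE 0.25, adjusted p = 0.437), each in both genotypes. These 3 probe sets passed the filter on an untreated array too. These limma values are two-sided with Benjamini-Hochberg adjustment. The model has 1 residual degree of freedom, so its residual is how far the DSS effect differed between the genotypes. The SEs given join this residual with a spread taken from all kept probe sets by intensity, with prior degrees of freedom of 3.11. An exact permutation of 2 against 2 arrays could not go below p = 0.333.

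Of the 6 kept probe sets of the other imprinted growth genes, only Peg3 1417355_at was highest on the WT DSS and lowest on the untreated KO array. Igf2, a fetal growth factor, had values of 4.03 on the KO DSS array, 3.85 on the WT DSS array, 4.20 on the untreated KO array and 3.64 in untreated WT colon on its brighter probe set (1448152_at), a range of under 1. Its other probe set (1415931_at) lay between 1.35 and 1.53, near background. The H19 probe set shared with Mir675 was at 1.78, 1.90, 1.85 and 1.68 on the KO DSS, WT DSS, untreated KO and untreated WT arrays, little above the background limit.

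Grb10 was highest on the KO DSS array. Its bright probe set (1425458_a_at) was at 6.0 there, at 5.30 on the WT DSS array, 4.99 on the untreated KO array and 5.21 in untreated WT colon. The DSS minus untreated difference was 1.01 in KO and 0.09 in WT, and the limma estimate over both was 0.55 (SE 0.33, adjusted p = 0.645). The remaining Grb10 probe sets (1425457_a_at and 1430164_a_at) did not pass the filter and lay between 1.60 and 2.56.

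Cdkn1c, which encodes the CDK inhibitor p57, was the only member lower with DSS in both genotypes by more than 0.5. Its probe set (1417649_at) had values of 4.46 on the KO DSS array and 4.59 on the WT DSS array, and of 5.14 on the untreated KO array and 5.75 in untreated WT colon. Both DSS arrays lay below both untreated arrays. The DSS minus untreated difference was -0.68 in KO and -1.16 in WT, with a limma estimate of -0.92 (SE 0.26, adjusted p = 0.432). In WT, 4.53% of all kept probe sets were at least 2-fold lower with DSS.

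Plagl1 was level on 3 arrays, at 5.87 on the KO DSS, 5.86 on the WT DSS and 5.86 on the untreated KO array, and lower at 5.30 on the untreated WT array (1426208_x_at). Its remaining probe sets (1438588_at and 1450533_a_at) did not pass the filter and lay between 1.24 and 2.56.

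Peg3 was lowest on the untreated KO array. Its brightest probe set (1433924_at) was at 4.94 on the KO DSS array, 4.29 on the WT DSS array, 3.47 on the untreated KO array and 4.56 in untreated WT colon, so it was higher with DSS in KO, by 1.47, and slightly lower in WT, by -0.27. A second (1417355_at) was at 4.28, 4.31, 3.58 and 4.02 on the same arrays, with DSS differences of 0.70 in KO and 0.29 in WT, so the probe sets disagree on the WT direction. Probe set 1417356_at did not pass the filter and spanned 2.45 to 3.0, and 1447731_at and 1447732_x_at were not above background on any array.

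**Figure D3:**
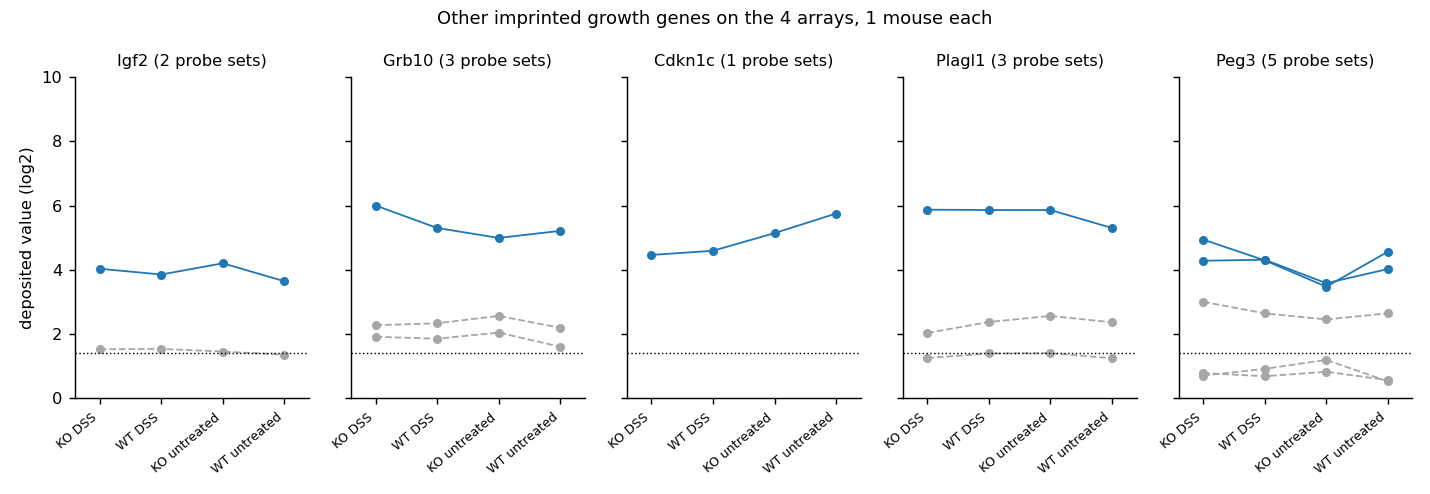
Deposited log2 values of every probe set of Igf2, Grb10, Cdkn1c, Plagl1 and Peg3 on the 4 arrays, drawn as for the domain members. Grb10 is highest on the KO DSS array at 6.0, Cdkn1c lies lower on the DSS arrays (4.46 and 4.59) than on the untreated ones, and Peg3 is lowest on the untreated KO array.

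The order of levels by array differed between members accordingly. For all 17 kept domain probe sets the WT DSS array was highest, and for 12 the untreated KO array was lowest, while of the 6 kept probe sets of the other members 1 was highest on the WT DSS array and 3 were lowest on the untreated KO array. Among all kept probe sets, 10.4% combined both places, and the share highest on the WT DSS array was not counted. The members were chosen on the KO against WT contrast, and 3 of the 17 passed the filter only through the WT DSS array. This order is therefore in part given by the choice and the filter, and is a description.

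With DSS, the genes that flank the domain on chromosome 12 differed less between KO and WT than the brightest probe sets of its 4 members did. The members were chosen on the KO against WT contrast, so this gap describes the choice and is not evidence. Without DSS, Rian at -0.66 and Mirg at 0.10 lay within the range of the flanking genes given below. The flanking genes were the 8 protein-coding genes on either side, in RefSeq order, that had a kept probe set, a set chosen after the values were seen. None of the 16 was 2-fold apart between KO and WT in either treatment, with differences of -0.38 to 0.87 with DSS (median 0.03) and of -0.72 to 0.80 without (median -0.23). Over all genes the shares past 2-fold were 1.21% lower and 4.22% higher with DSS, and 5.98% lower and 3.43% higher without, so a count of 0 among 16 is near the background. With DSS, Hsp90aa1, a heat shock protein gene, was higher by 1.05 in both KO and WT, and Cinp by 1.15 in KO and 0.82 in WT. The nearest kept genes, Wars and Ppp2r5c, differed between KO and WT by -0.09 and 0.07 with DSS and by 0.14 and -0.40 without. Wdr25, a neighbour of Dlk1, did not pass the filter.

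**Figure D4:**
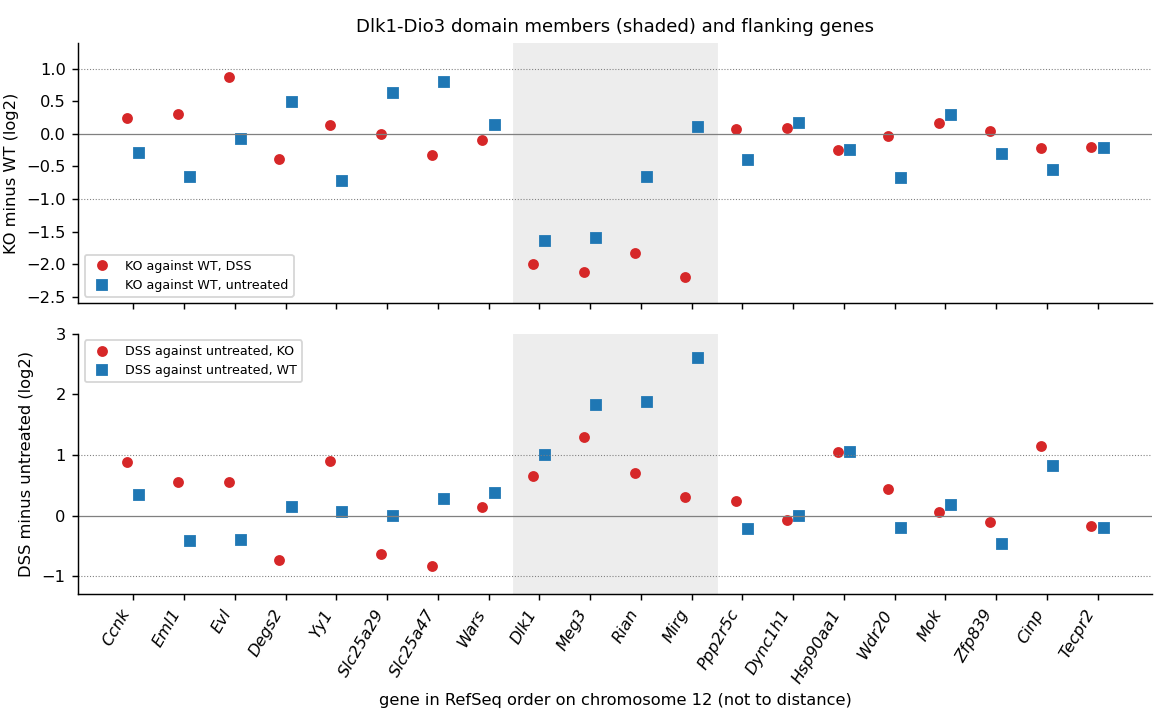
Log2 differences of the brightest kept probe set of each gene along chromosome 12, in RefSeq gene order and not to distance, with the 4 domain members shaded. The upper panel shows KO minus WT with DSS (circles) and untreated (squares), the lower DSS minus untreated in KO (circles) and WT (squares), with dotted lines at 2-fold. With DSS the 4 domain members, chosen on this contrast, lie between -1.83 and -2.20 and the 16 flanking genes between -0.38 and 0.87. The Mirg probe set passed the filter only through the WT DSS array.

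By pattern over the 4 arrays, Meg3, Dlk1 and Rian lay near each other, and Mirg lay near Rian but further from Meg3 and Dlk1. Likeness was the Euclidean distance between the 4 log2 values of 2 genes, each minus its own mean, among 3255 other named genes with a range of at least 1. The genes most like Meg3 were Dlk1 (0.74), Rian (0.75), Tex12 (0.87), Spata5l1 (0.97) and Pla2g5 (1.02). Those most like Rian were Tex12 (0.13), Mirg (0.62), Spata5l1 (0.71), Timm9 (0.72) and Meg3 (0.75). For Mirg, Rian came second (0.62), after Tex12 (0.53), and for Dlk1, Meg3 came second (0.74), after Aldh1l2 (0.71). Mirg was at a distance of 1.21 from Meg3, at rank 7 in the order of Meg3 and 38 in its own, and of 1.39 from Dlk1, at rank 94 in the order of Dlk1 and 180 in its own. The domain genes were chosen for this pattern in part, and the Mirg probe set passed the filter only through the WT DSS array, so their closeness is a description. Grb10 was nearest to Olfml3 (0.08) and Epdr1 (0.08), Cdkn1c to Fam120aos (0.06) and the junction receptor gene Cxadr (0.07), and Peg3 to Clic4 (0.06), with Meg3 at ranks of 2986, 3096 and 2789 in these 3 orders.

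Between KO and WT, other imprinted genes had medians between -0.35 and 0.36. Of 7 measured genes of the imprinted gene network beyond the members, 2 were at least 2-fold higher and 0 lower in KO than in WT with DSS (all genes: 4.22% and 1.21%), with a median of 0.36. These were Mest, a paternally expressed gene of the hydrolase family, by 1.24, and Dcn, the proteoglycan decorin of fibroblasts, by 2.02. Without DSS 2 were lower and 0 higher (all genes: 5.98% and 3.43%), Gatm by -1.29 and Igf2r, the receptor that clears IGF2, by -1.19. Of 26 other imprinted genes, 0 were 2-fold apart between KO and WT with DSS (median -0.10), and without DSS 3 were lower and 1 was higher (median -0.04). With DSS against untreated, 5 of these 26 were lower and 1 higher in WT, and 7 lower and 3 higher in KO, where of all genes 4.96% were lower and 5.82% higher in WT, and 6.68% lower and 10.8% higher in KO. Phlda2, a placental growth restrainer, was higher by 2.58 in KO and 1.53 in WT, and Ppp1r9a lower by -1.33 in KO and -2.83 in WT. In limma's DSS test, 0 of the 7 and 0 of the 26 passed, and 0 and 8 had an unadjusted p under 0.05. Of all kept probe sets, 0% passed and 10.4% had an unadjusted p under 0.05.

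Igf2 and Grb10 act on the IGF pathway. With DSS in KO, 6 of its 16 other measured members were 2-fold or more higher and 0 lower (all genes: 10.8% and 6.68%), with a median of 0.63, and 3 were higher and 3 lower in WT (all genes: 5.82% and 4.96%), with a median of -0.18. Igfbp5, an IGF binding protein, was higher by 4.05 in KO and 1.62 in WT, Igfbp4 by 2.15 and 1.28, and Pappa, a protease that frees IGF from its binding proteins, by 1.21 and 2.03. Igfbp2 was lower in KO than in WT by -0.60 with DSS and -1.89 without. None of the 16 passed limma's DSS test, and 4 had an unadjusted p under 0.05 (all kept probe sets: 0% and 10.4%). Of 5 measured CDK inhibitors related in function to Cdkn1c, 1 was lower with DSS in each genotype (all genes: 6.68% in KO and 4.96% in WT). This was Cdkn2b, by -2.07 in KO and -1.27 in WT. Of 9 Notch receptors, ligands and targets, 2 were higher and 0 lower in KO than in WT with DSS (median 0.03; all genes: 4.22% and 1.21%), Notch2 by 1.12 and Dll1 by 1.01. Without DSS 0 were higher and 1 was lower (median 0.09; all genes: 3.43% and 5.98%), Notch4 by -1.29. Of 6 regulators of imprinting, 0 were 2-fold apart between KO and WT in either treatment. Over all genes 1.21% were lower and 4.22% higher with DSS, and 5.98% and 3.43% without, so 0 of 6 is near the background. With DSS, Uhrf1 and the maintenance DNA methyltransferase gene Dnmt1 were higher, by 1.49 and 1.04 in KO and by 2.54 and 0.90 in WT.

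Markers of cell types that could carry the domain transcripts did not all move with them. With DSS, KO minus WT medians were 0.66 for 8 fibroblast markers, 0.09 for 7 smooth muscle markers, 0.48 for 7 endothelial markers and 0.54 for 8 enteric neuron and glia markers, where the domain probe sets had a median of -1.80. The domain members were chosen on the KO against WT contrast and the lists were not, so this gap describes the choice. The domain median is over 17 probe sets, 11 of them of Meg3, and the list medians over 1 probe set a gene. For 5 adipocyte markers the median was -0.54, with Adipoq, the fat cell hormone adiponectin, at 2.14 on the KO DSS array and 5.01 on the WT DSS array, the largest difference of the 5. Retn and Pparg were also lower, by -0.54 and -0.72, while Fabp4 and Lipe were higher, by 0.26 and 0.29. Without DSS the adipocyte median was 0.80, with Adipoq at 4.54 in KO and 2.50 in WT, and the domain median was -0.66. Summed on the linear scale, the adipocyte markers had levels of 229.8 on the KO DSS array, 283.3 on the WT DSS array, 366.5 on the untreated KO array and 177.4 in untreated WT colon. The fibroblast markers summed to 3895.3, 1927.4, 2085.5 and 2540.1 on the same arrays in that order, and the smooth muscle markers to 6029.2, 5600.9, 4292.5 and 8416.9. Without DSS, smooth muscle markers had a median of -0.83, with 3 of 7 at least 2-fold lower in KO, and enteric neuron and glia markers of -0.41, with 3 of 8 lower, where 5.98% of all genes were. The 2 markers of the interstitial cells of Cajal went opposite ways, Ano1, a channel gene, by -2.74 and the receptor gene Kit by 0.33. The 2 kept mesothelial markers had medians of 1.48 with DSS and -0.68 without, and the 2 kept skeletal muscle markers of 0.29 and -0.13. Lep of the adipocyte list, Chat of the enteric neurons, Lrrn4 and Wt1 of the mesothelium and Myh4, Tnnt3 and Mylpf of skeletal muscle did not pass the filter. The part of these markers and of position along the gut in the domain's differences was not tested.

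**Figure D5:**
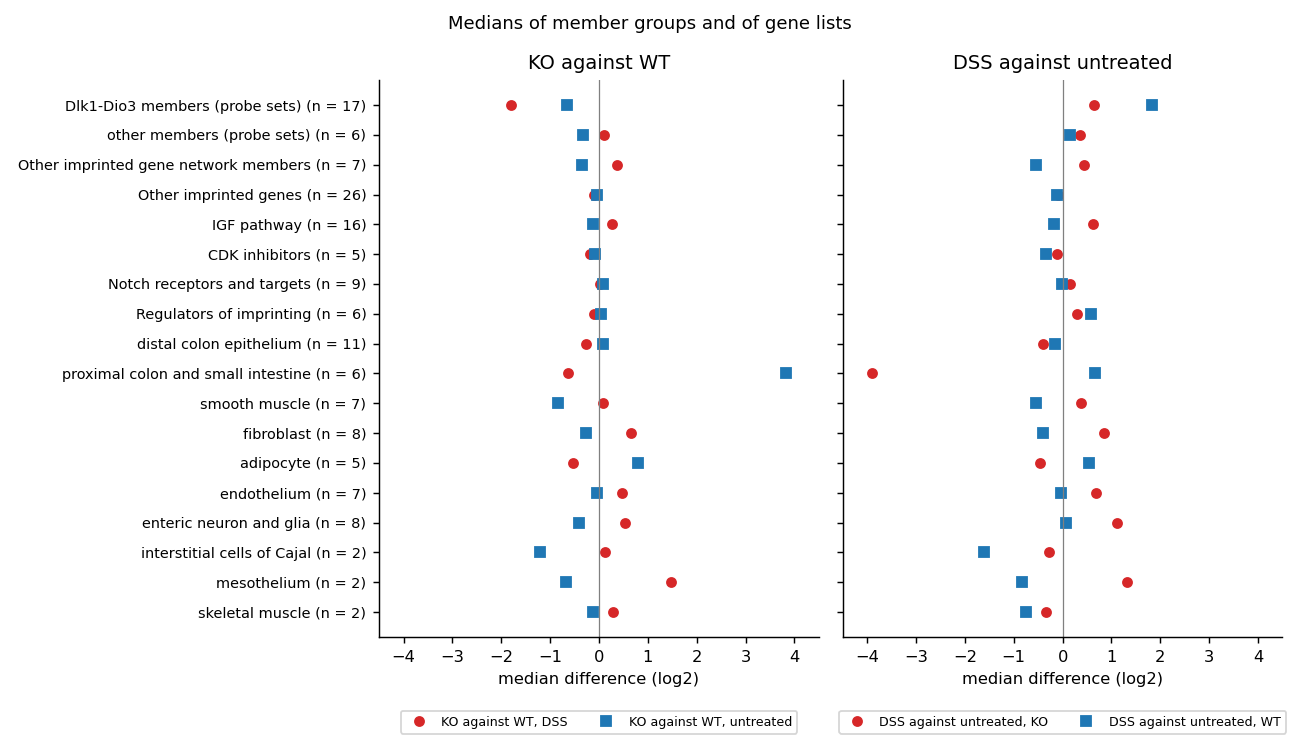
Median log2 differences of the domain and other member probe sets and of each gene list (1 probe set a gene, n in brackets). The left panel shows KO minus WT with DSS (circles) and untreated (squares), the right DSS minus untreated in KO (circles) and WT (squares). With DSS the domain members lie at -1.80, below every list drawn. They were chosen on the KO against WT contrast, so this place describes the choice. Their median is over 17 probe sets, 11 of them of Meg3, while the lists have 1 a gene. The proximal colon and small intestine markers stand apart at 3.83 in the untreated KO against WT comparison.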

How the data were processed

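Total RNA of 4 mouse colons was hybridised as biotinylated cRNA to Affymetrix arrays, per the labels' protocols. The authors' deposited table held 45101 probe sets, 64 of them controls, taken as log2 because the highest one, read as a natural log, would stand for 556821, more than the 65535 a 16-bit scanner can record. Summarization and normalization are not given in the sources used here, and column medians were 3.41 to 3.46. Probe sets were named from the platform annotation, with symbols updated by Entrez number through RefSeq GRCm38.p6. Of the probe sets, 34945 had 1 symbol, of which 34741 matched by number, and 932 had several. Probe sets brighter than the array median on 1 or more arrays were kept, 24602 in all, for 12189 genes. Of the 33 member probe sets, 23 passed and 10 did not. Lists used each gene's brightest kept probe set. The members and lists, and the background limit, were chosen with earlier results of these data known. All 10 members were named with every probe set, and like genes by the 5 smallest distances, of which the first are printed. List genes were named mostly by the largest mean differences of either factor (up to 3 each). Not all such genes are printed, and Hoxd13 and Retn are among those named outside this rule. Flanking genes were chosen after their values were seen. Pairs of arrays were compared as log2 differences with a 2-fold threshold and no test. DSS against untreated was tested with limma 3.58.1 in R 4.3.3 (lmFit, eBayes with an intensity trend, prior degrees of freedom 3.11). The number of arrays limits the precision. The code was tested on simulated data. Alternatives were the normalization, the filter, the choice of probe sets, the covariate and the trend. Python 3.11.15, numpy 2.4.6, pandas 2.3.3 and matplotlib 3.10.9 were used.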

Additional observations from a re-analysis of the deposited data

Results flagged for a closer look

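The DSS difference of Peg3 (1433924_at) ran opposite ways in the 2 genotypes, at 1.47 in KO and -0.27 in WT, so that the KO difference minus the WT one was 1.74. The untreated KO array, at 3.47, was the lowest of the 4, and a second probe set (1417355_at) was higher with DSS in both genotypes. For Meg3 (1436057_at) the difference was -0.06 in KO and 1.05 in WT, -1.11 apart, on 1 of the 3 Meg3 probe sets that were not lower in the untreated KO array. Both were picked out because the single KO and WT arrays moved in opposite directions by at least 1 in total, and neither difference was tested.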

How the results depend on the processing

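Under quantile normalization, median centring, no filter and the 75th percentile filter, the counts of member probe sets at least 2-fold apart stayed within 1.5 times in all 4 comparisons. The filter changed how many members were counted, so the shares were not the same. For KO against WT with DSS the counts were 13 of 23 as deposited (1.34%), 14 of 33 with no filter (0.766%) and 9 of 12 with the 75th percentile filter (1.5%). All of these were lower in KO. Percentages in brackets here and below are the shares of all probe sets or genes in that setting that passed 2-fold in the same direction. Counts by gene are lower by construction. With the brightest kept probe set of each of 9 genes, 3 were apart in KO against WT untreated, 4 in KO against WT with DSS, 5 in DSS against untreated in WT and 3 in KO. With the mean over a gene's kept probe sets these were 1, 4, 5 and 2. Leaving out probe sets whose suffix marks several possible transcripts, 15 members remained to count, with 3 apart in KO against WT untreated, 7 with DSS and 8 for DSS in WT. The KO DSS array against the untreated WT array was a setting added after seeing the data. It gave 2 (both lower, 4.78%) in place of 6 (all higher, 10.1%), with a change of genotype as well as of array. Of 72 recomputed values of single members, 70 kept their side of 2-fold and 2 did not, Dlk1 for DSS in WT (0.99) and Grb10 for DSS in KO (0.90), both under quantile normalization. None of the values at 2-fold or more changed sign, and 2 near 0 did, both of Plagl1 (1426208_x_at). Its KO minus WT difference with DSS was -0.01 under median centring in place of 0.01, and its DSS minus untreated difference in KO was -0.12 under quantile normalization in place of 0.01. The count passing limma stayed at 0 under all 7 alternatives, with 2 to 13 members at an unadjusted p under 0.05. The share of all probe sets under that p was not counted for these alternatives, so no support is drawn from these counts. No paired analysis was possible because each group has 1 array.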
